A study of Mus musculus with 14 samples.

Results

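The 10 genes described here encode secreted growth factors: the EGF-family ligands Nrg4, Areg and Hbegf, the TGF-beta family members Gdf15 and Tgfb1, the VEGF genes Vegfa and Vegfb, the PDGF chains Pdgfa and Pdgfb, and Igf1. They were found by symbol through the RefSeq record named for each array probe, which gave 17 probes among 41174, and all 10 genes were among the 21969 genes tested. RNA was measured on 14 Agilent arrays of 1 colour (Cy3) after whole transcriptome amplification. Traumatic brain injury (TBI) was modelled by controlled cortical impact, in which a piston strikes the opened skull over the cortex. The groups were Arg1+ brain macrophages (n = 4) and Arg1- brain macrophages (n = 4) 1 day after TBI, blood monocytes 1 day after TBI (n = 3) and blood monocytes of normal, untreated mice (n = 3). All mice were males of 12 to 16 weeks of the YARG strain, in which the arginase-1 locus drives a fluorescent reporter, so that allele is common to cases and controls. The reporter separates cells by Arg1 expression, not by origin, so resident microglia and infiltrating cells can fall on either side. No brain cells of sham or uninjured mice were analysed here. A further array of each blood group was not analysed here either. The labels number the replicates but do not say whether they are separate animals or pools, so p-values measure only the spread between these samples, which may be technical.

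Growth factors are released by macrophages at a wound and act on neighbouring cells through cell-surface receptors. NRG4 acts through ERBB4, amphiregulin (AREG) through the EGF receptor and HB-EGF through both; these ligands are made as membrane-anchored precursors that proteases can shed. GDF15 is a stress-induced hormone that acts through GFRAL in the hindbrain, and TGF-beta 1 is secreted in a latent form and restrains inflammation. VEGFA drives vessel growth and permeability and is a classic target of the hypoxia response, VEGFB is a related ligand of FLT1, PDGF chains recruit mesenchymal cells and pericytes, and IGF1 is a trophic factor for neurons and glia.

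Levels are log2 ratios of a probe's signal to the 75th percentile of its array, with ratios under 0.05 raised to 0.05, so that -4.32 is the lowest possible value. That percentile ran from 119.4 to 418.5 intensity units, and the share of probes well above background from 50.11% to 67.22%. By replicate, the percentile was 119.4, 216.2, 145.7 and 271.8 in Arg1+ and 233, 151.2, 418.5 and 235.8 in Arg1- cells. The part of array brightness in the differences below was not tested. Saturation affected 0 spots, and the number of arrays limits the precision. Differences come from 1 limma fit over all arrays and genes, are given as log2 difference ± standard error, and were called at a Benjamini-Hochberg adjusted p under 0.05. Arg1, the basis of the sort, averaged 6.41 in Arg1+ and 3.16 in Arg1- cells (3.25 ± 0.43, adjusted p = 0.000526, with 1 Arg1+ spot set aside as uneven). On the 4 Arg1- arrays Arg1 read 2.12 to 4.2, above the 75th percentile of the array and far above the -3.90 to -3.13 of blood, so Arg1 RNA was low there only relative to Arg1+ cells. Carry-over of Arg1+ cells in the sort was not tested. Of the monocyte and macrophage markers, 8 of 9 were measured, and their summed level ran from 6.72 to 8.13 across all arrays. Of 11 microglial markers, none was called between the brain populations, where 5.04% of all genes were called. Their median log2 difference was 0.57, and their summed level was 5.77 to 6.45 in Arg1+ and 5.44 to 5.91 in Arg1- cells. Relative to post-TBI blood 10 rose in Arg1+ and 9 in Arg1- cells, where 39.9% and 33.4% of all genes were called. Between the brain populations, 7 of 11 neutrophil markers were called lower and 1 higher in Arg1+ cells (summed level 3.39 to 4.45 against 5.12 to 7.16), and 6 of 7 dendritic cell markers were called lower (-0.02 to 0.78 against 2.51 to 3.14). The part of those cells in the differences below was not tested. These are bulk samples, in which fewer cells of a type and less RNA per cell cannot be told apart.

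Promoter sequences are shown for the 3 genes that were called between the brain populations and for Vegfa. On its brightest probe, Vegfa had the largest fitted brain to blood difference among the genes measured above background on both sides. Each is a RefSeq window of 300 bases on GRCm38.p6, 250 before and 50 after an annotated start, written 5′ to 3′ on the gene's strand. Gdf15 has a pair of annotated starts in that table. Capitals mark matches, on either strand, to ACGTG (core of the hypoxia response element), TGACG (core of the cAMP response element), TGACTCA (AP-1), TGATGNA (core of the CEBP-ATF composite) or GGGCGG (GC box). The windows lie at chr5:91139349-91139648 on the plus strand for Areg and at chr9:55283576-55283875 on the minus strand for Nrg4. On the minus strand of chromosome 8, those of Gdf15 lie at chr8:70632407-70632706 and chr8:70632046-70632345, and on that of chromosome 17 the Vegfa window lies at chr17:46032328-46032627.
Nrg4: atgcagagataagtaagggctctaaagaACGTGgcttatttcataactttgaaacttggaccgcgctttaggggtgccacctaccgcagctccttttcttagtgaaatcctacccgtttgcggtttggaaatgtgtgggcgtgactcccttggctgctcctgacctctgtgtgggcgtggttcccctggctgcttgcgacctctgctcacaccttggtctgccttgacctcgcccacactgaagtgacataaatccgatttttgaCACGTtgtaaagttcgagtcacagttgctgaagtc
Areg: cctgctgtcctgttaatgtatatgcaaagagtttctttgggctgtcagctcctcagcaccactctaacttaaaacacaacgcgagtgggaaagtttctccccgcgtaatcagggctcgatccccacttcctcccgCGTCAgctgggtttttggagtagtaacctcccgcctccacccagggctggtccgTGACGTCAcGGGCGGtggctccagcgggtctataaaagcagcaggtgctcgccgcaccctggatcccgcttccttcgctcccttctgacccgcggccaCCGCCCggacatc
Gdf15 start 1: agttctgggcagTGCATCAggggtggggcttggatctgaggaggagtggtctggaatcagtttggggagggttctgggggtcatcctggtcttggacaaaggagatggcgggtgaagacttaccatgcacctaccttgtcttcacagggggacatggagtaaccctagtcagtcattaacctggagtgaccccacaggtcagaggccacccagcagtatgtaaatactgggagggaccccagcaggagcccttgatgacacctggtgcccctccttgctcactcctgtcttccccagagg
Gdf15 start 2: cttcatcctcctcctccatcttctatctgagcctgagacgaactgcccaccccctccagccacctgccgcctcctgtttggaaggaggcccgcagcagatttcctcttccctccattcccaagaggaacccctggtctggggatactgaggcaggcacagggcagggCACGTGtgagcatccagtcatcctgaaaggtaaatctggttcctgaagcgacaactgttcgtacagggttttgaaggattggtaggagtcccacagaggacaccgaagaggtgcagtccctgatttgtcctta
Vegfa: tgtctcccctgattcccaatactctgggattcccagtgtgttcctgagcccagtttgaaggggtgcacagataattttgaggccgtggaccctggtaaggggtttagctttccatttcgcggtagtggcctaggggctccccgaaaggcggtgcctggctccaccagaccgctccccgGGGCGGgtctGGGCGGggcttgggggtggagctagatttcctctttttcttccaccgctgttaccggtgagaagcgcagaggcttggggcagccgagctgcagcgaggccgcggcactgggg

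The Nrg4 window held ACGTG at -222 and, on the other strand, at 15 from the start. Areg held TGACG at -115, -61 and -58, the last pair overlapping on opposite strands, and GGGCGG at -52 and 37. The first Gdf15 window held TGATGNA at -238, and the second held ACGTG on both strands at -83 and -82, which is 1 palindromic stretch. The Vegfa window held GGGCGG at -72 and -62 and no ACGTG, while the window of another annotated Vegfa start, not shown, held ACGTG at -211. Over 11 promoters of the 8 growth factor genes in the table, ACGTG matched in 3, TGACG in 3, TGACTCA in 0, TGATGNA in 1 and GGGCGG in 7. The shares over all 32851 promoters of this length were 19.6%, 20.8%, 5.2%, 12.2% and 35.7%. A match is a description of these letters and shows no bound factor. Hbegf and Pdgfb are named only.

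**Figure D1:**
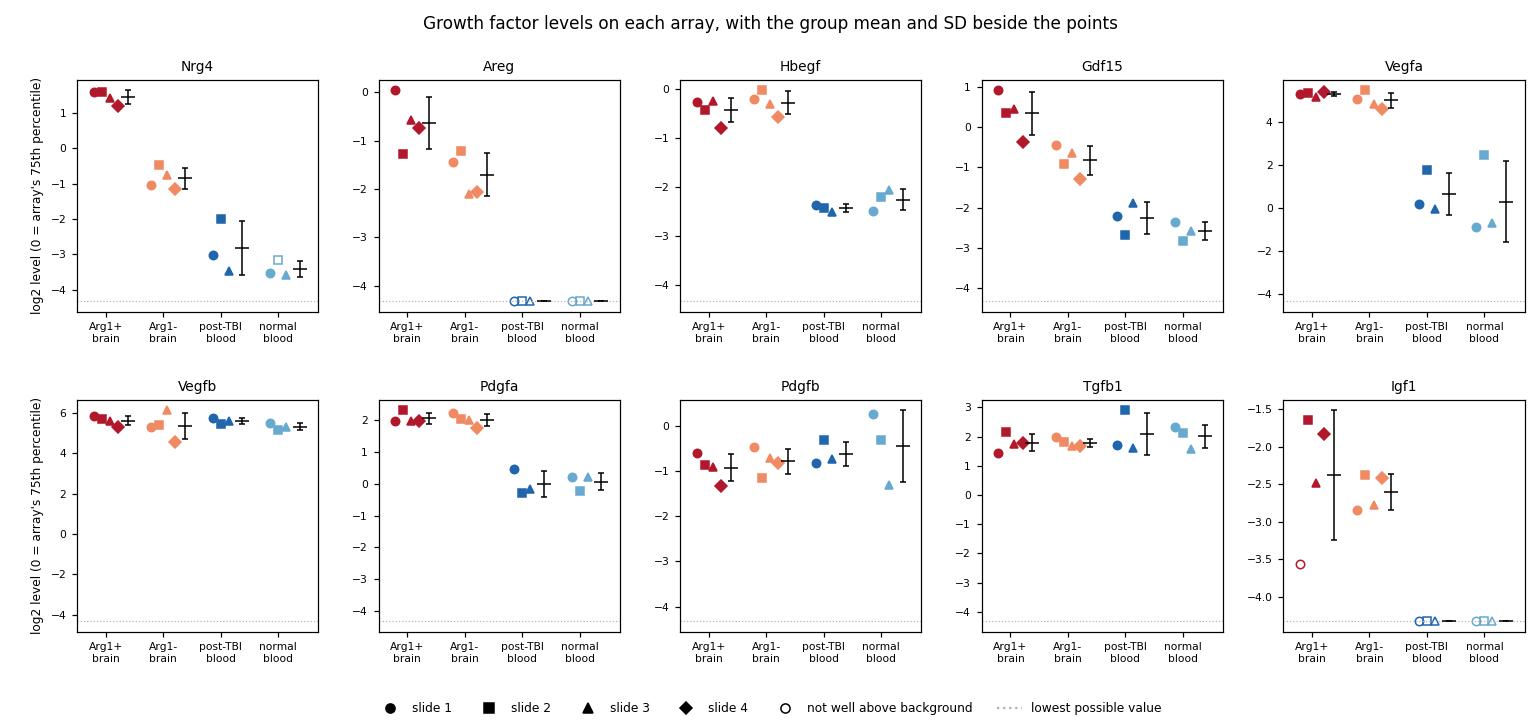
Log2 level of each growth factor on each of the 14 arrays (y axis; 0 is the array's 75th percentile, dotted line the lowest possible value), by group (x axis), with the group mean and SD as a bar beside the points. Marker shape gives the slide and open markers were not well above background. Nrg4 averages 1.45 in Arg1+ and -0.85 in Arg1- cells, with the blood groups lower and overlapping each other, while Vegfb, Pdgfb and Tgfb1 overlap between brain and blood.

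The sort on the reporter poses the question of which growth factors part the brain populations. RNA for Nrg4, Gdf15 and Areg was higher in the Arg1+ population, and none of the other 7 genes was called. Nrg4 was 4.93-fold higher, Gdf15 2.23-fold and Areg 2.1-fold. These 3 calls of 10, all upward, stand against 5.04% of all 21969 genes called in this comparison, 2.14% higher and 2.9% lower. The median log2 difference of the 10 genes was 0.24 against 0 for all genes tested. The 10 genes were chosen with earlier results of these data known. These counts and medians, and those of the comparisons below, thus describe the list and are no test of it.

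Nrg4, a ligand of ERBB4 known mainly as a factor secreted by brown fat, read 1.60, 1.19, 1.59 and 1.42 on the Arg1+ arrays and -0.46, -0.76, -1.15 and -1.03 on the Arg1- arrays (replicates 1 to 4 in each). All Arg1+ arrays lay above all Arg1- arrays. The log2 difference was 2.30 ± 0.28 (95% interval 1.70 to 2.90, limma adjusted p = 0.000196). Each of 4 slides held an array of both populations, and within slides the difference was 2.05 to 2.63. In blood the level was -3.48, -3.01 and -1.99 after TBI (replicates 1, 3 and 4) and -3.52, -3.57 and -3.16 in normal mice (replicates 2, 3 and 4), the last not well above background. The groups thus stood in the order Arg1+, Arg1-, blood. Post-TBI and normal blood overlapped and did not differ beyond their spread (0.59 ± 0.32, interval -0.10 to 1.28, adjusted p = 0.842). The call between the brain populations was kept in all 27 alternative settings, with a log2 difference of 1.82 to 2.43.

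Gdf15, the stress-induced hormone, read 0.91, -0.36, 0.36 and 0.45 on the Arg1+ arrays and -0.91, -0.65, -1.28 and -0.45 on the Arg1- arrays. The lowest Arg1+ array lay just above the highest Arg1- array, so the groups did not overlap. The log2 difference was 1.16 ± 0.28 (interval 0.57 to 1.75, adjusted p = 0.0244) and 0.91 to 1.36 within the 4 slides. With slide as a block in the fit the adjusted p was 0.00175. The call ended without Arg1- replicate 1 or 3 or Arg1+ replicate 1, 3 or 4, with adjusted p of 0.0664 to 0.0922. It also ended with only the brain arrays in the fit (adjusted p = 0.0564) and without the filter on dim probes (0.0572). Of the 10 genes, 2 (Nrg4 and Gdf15) did not overlap between the populations, against 14.9% of all genes tested.

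Areg, an EGF receptor ligand tied in mice to tissue repair by immune cells, read 0.04, -0.73, -1.27 and -0.58 on the Arg1+ arrays and -1.21, -2.11, -2.06 and -1.45 on the Arg1- arrays. Arg1+ replicate 3 lay below Arg1- replicate 1, so the groups overlapped. The log2 difference was 1.07 ± 0.28 (interval 0.49 to 1.66, adjusted p = 0.0351). It was 1.49, 1.53 and 1.33 within slides 1, 3 and 4 and -0.06 within slide 2, which holds the overlapping pair. All 6 blood arrays sat at the floor for Areg and add no spread to the shared estimate. With only the brain arrays in the fit the standard error was 0.33 and the adjusted p 0.101, and with a floor of 0.01 the adjusted p was 0.0578. The call also ended with normexp background correction (0.77, adjusted p = 0.131) and without the dim-probe filter (0.071). Leaving out Arg1- replicate 2 or 3, Arg1+ replicate 1, 2 or 4, normal blood replicate 2 or 3 or post-TBI blood replicate 3 ended it as well, with adjusted p of 0.0501 to 0.118.

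Because Areg is known from basophils, innate lymphoid cells and T cells, their markers were set beside it. Of 9 eosinophil and basophil markers, 5 passed the filter, and their summed level was -1.58 to -1.26 in Arg1+ and 0.01 to 1.39 in Arg1- cells; Mcpt8, Cpa3, Fcer1a and Ms4a2, which define basophils and mast cells, were too dim on these arrays to be tested. Of 10 markers of innate lymphoid and T cells, 8 were tested, and their summed level was 3.32 to 3.84 in Arg1+ and 2.41 to 3.17 in Arg1- cells. Il7r and Rora were called higher in Arg1+ cells (1.00 and 0.56) and Il2ra lower (-1.46). Cd3e and Cd3g, CD3 subunits of the T cell receptor complex, and the IL-33 receptor Il1rl1 were near the floor in Arg1+ cells, at -4.23, -4.32 and -4.17. The summed level of the 8 innate lymphoid and T cell markers was thus higher in Arg1+ cells, where Il7r alone read 3.32. Their median log2 difference was -0.74, and Cd3e, Cd3g and Il1rl1 were at their lowest in Arg1+ cells. The part of such cells in the Areg level was not tested.

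The other genes overlapped between the brain populations, and each interval still allows a moderate difference. Hbegf read -0.25, -0.78, -0.42 and -0.24 in Arg1+ and -0.02, -0.30, -0.56 and -0.19 in Arg1- cells, a log2 difference of -0.15 ± 0.19 (interval -0.57 to 0.26, adjusted p = 0.806). Vegfa read 5.32, 5.39, 5.37 and 5.16 against 5.48, 4.85, 4.63 and 5.10, a log2 difference of 0.29 ± 0.57 (interval -0.93 to 1.51, adjusted p = 0.90). That standard error comes largely from a pair of blood arrays described below. Without them, in a setting added after the data were seen, it was 0.16 and the difference was not called either (adjusted p = 0.343). The log2 difference was 0.27 ± 0.26 for Vegfb (interval -0.28 to 0.82) and 0.22 ± 0.32 for Igf1 (interval -0.47 to 0.91). For Pdgfa it was 0.06 ± 0.18 (interval -0.34 to 0.45), for Pdgfb -0.14 ± 0.29 (interval -0.76 to 0.48) and for Tgfb1 0.01 ± 0.26 (interval -0.54 to 0.55).

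**Figure D2:**
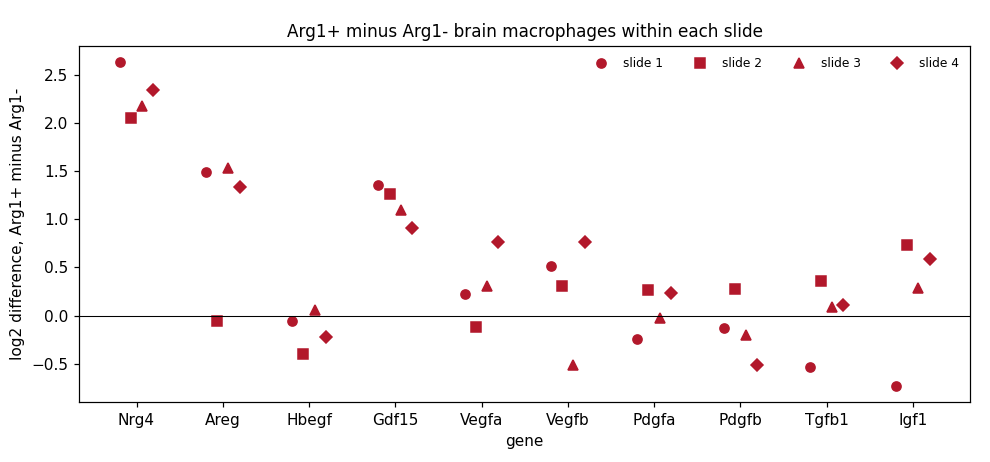
Log2 difference between the Arg1+ and the Arg1- array on the same slide (y axis) for each growth factor (x axis), 1 point per slide and no test. Nrg4 lies between 2.05 and 2.63 and Gdf15 between 0.91 and 1.36 on all 4 slides, whereas Areg is near 0 on slide 2 and the other 7 genes fall on both sides of 0.

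The comparison of monocytes after TBI with those of normal mice asked whether the injury is seen in blood at 1 day. Of the 10 growth factors 0 were called, and 0 had an unadjusted p under 0.05 in limma, where 0.15% of all genes were called, 0.109% higher and 0.041% lower. In this comparison 0 of the 10 genes were without overlap between the groups, against 9.26% of all genes. The median of the 10 log2 differences was 0.03, against 0 for all genes. Areg and Igf1 were not well above background on any of the 6 blood arrays and sat at the floor on all of them. In this comparison they could thus be neither called nor without overlap, and their differences of 0 enter the median. Nrg4 had the largest difference, given above. Gdf15 read -1.89, -2.20 and -2.69 after TBI and -2.36, -2.57 and -2.82 in normal blood (0.32 ± 0.32, interval -0.36 to 1.01).

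Vegfa varied within both blood groups. It read -0.02, 0.20 and 1.79 after TBI and -0.85, -0.70 and 2.48 in normal mice. Replicate 4 of each group, the pair on slide 2, stood above the other 4 blood arrays on all 4 Vegfa probes. The log2 difference was 0.34 ± 0.66 (interval -1.07 to 1.76). It was 1.43 without normal replicate 4, -0.22 without post-TBI replicate 4, -0.23 without normal replicate 2 and -0.16 without normal replicate 3, and 0.86 ± 0.23 without the slide 2 pair (adjusted p = 0.395). On the same pair the 5 measured eosinophil and basophil markers had their highest sums of each blood group, 4.48 in normal blood (against 1.74 and 1.63) and 2.88 after TBI (against 0.12 and 0.82). Ccr3, the eotaxin receptor, was 3.93 and 2.22 there and at most 1.15 on the other blood arrays, while the eosinophil peroxidase Epx was at most -2.90 on all blood arrays. The glucose transporter Slc2a1 (0.33 and 1.51, against at most -0.06) and the hexokinase Hk2 (1.43 and 1.49, against at most 0.64), both hypoxia-response genes, were also highest on that pair, whereas the summed level of the 18 measured hypoxia-response genes was 5.02 and 5.06 there and 4.97 to 5.15 on the other blood arrays. Platelet sums were also highest there in each group (4.01 against 2.83 and 3.94 in normal blood, 4.92 against 4.18 and 4.32 after TBI). Endothelial sums were too (2.64 against 1.49 and 2.16, and 3.18 against 2.61 and 2.72). The neutrophil sum of normal replicate 4 was the lowest of its group. The pair had the lowest 75th percentiles of the blood arrays (149.2 and 170.2 against 258.4 to 384.1). The part of these cells, of this response, of array brightness or of the slide in the Vegfa levels was not tested. The brain arrays on slide 2 read 5.37 and 5.48, the latter the highest of the 8 brain arrays.

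Tgfb1 read 1.62, 1.72 and 2.90 after TBI and 2.32, 1.57 and 2.13 in normal blood (0.07 ± 0.30, interval -0.56 to 0.70). Its highest array, post-TBI replicate 4, also had the highest sums in its group of platelet markers (4.92 against 4.18 and 4.32), neutrophil markers (6.66 against 4.21 and 4.70) and monocyte and macrophage markers (8.13 against 7.67 and 7.67). In normal blood the highest Tgfb1 array, replicate 2, had the lowest platelet sum (2.83 against 3.94 and 4.01). Platelets store TGF-beta and PDGF, and the part of these cells was not tested. Without post-TBI replicate 4 the Tgfb1 difference was -0.34. Pdgfb ranged from -1.32 to 0.25 in normal blood and from -0.82 to -0.32 after TBI, a log2 difference of -0.17 ± 0.33.

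The remaining comparisons asked how brain macrophages differ from blood monocytes of injured mice; both use the same 3 post-TBI blood arrays, so they are not independent. In each, 7 of the 10 genes were called higher in brain and 0 lower. Areg and Igf1 passed the dim-probe filter through brain arrays alone (8 and 7 well above background), so they could only come out higher. All their blood values sat at the floor and add no spread to their p-values. The background was high: 39.9% of all genes were called for Arg1+ cells, 19.9% upward, and 33.4% for Arg1- cells, 17% upward. The arrays did not overlap for 7 of the 10 genes in each comparison, against 39.7% and 37% of all genes. The median log2 difference of the 10 genes was 2.03 and 1.85, against -0.03 and -0.02 for all genes. Markers of other cell types moved as well: in Arg1+ cells 5 of 6 astrocyte and 4 of 6 neuron markers were called higher than in post-TBI blood, and in Arg1- cells 2 and 3. B cell markers were called lower for 5 of 5 in both, and platelet markers for 6 and 7 of 8. Summed astrocyte levels were 1.24 to 2.35 in brain and 0.16 to 0.58 in post-TBI blood, and summed neuron levels 0.23 to 1.86 and 0.09 to 0.38. Oligodendrocyte markers did not follow: of 5 tested, 2 were called higher and 1 lower in Arg1+ cells, and 1 and 1 in Arg1- cells. Their summed level was 2.75 to 3.09 in brain and 4.5 to 4.95 in post-TBI blood. The part of these cell types in the growth factor differences was not tested. These groups differ in tissue, isolation and cell type together, and those cannot be told apart.

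**Figure D3:**
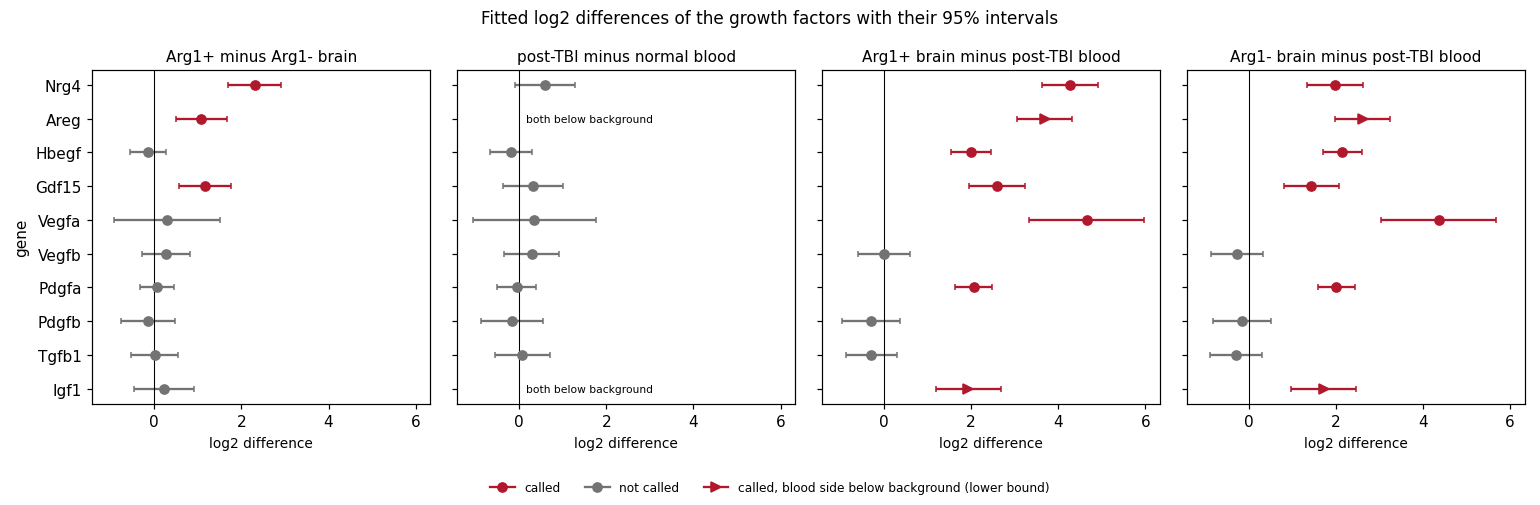
Fitted log2 difference (x axis) with its 95% interval for each growth factor (y axis) in the 4 comparisons. Red marks called genes, grey those not called, and triangles those whose blood side was not well above background, where the point is a lower bound. The 7 genes called between brain and blood are the same for Arg1+ and Arg1- cells, and only Nrg4, Areg and Gdf15 are called between the brain populations.

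On its brightest probe, Vegfa had the largest fitted log2 difference among the 5 called genes measured above background in post-TBI blood. Areg and Igf1 have only lower bounds and cannot be ranked against it. In Arg1+ cells its interval (3.33 to 5.98) overlapped that of Nrg4 (3.63 to 4.92), and another Vegfa probe gave 3.74, below the 4.28 of Nrg4. The lowest brain array read 4.63 and the highest blood array after TBI 1.79, and the 2 post-TBI blood arrays other than replicate 4 were at -0.02 and 0.20. Arg1+ cells were 25.2-fold higher (4.65 ± 0.62, adjusted p = 2.6e-05) and Arg1- cells 20.6-fold higher (4.36 ± 0.62, adjusted p = 7.16e-05). Without the slide 2 blood arrays the log2 differences were 5.22 and 4.93.

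Nrg4, Areg and Hbegf, the 3 EGF-family ligands described here, were higher in brain. Nrg4 was 19.4-fold higher in Arg1+ cells (4.28 ± 0.30, adjusted p = 3.71e-08) and 3.93-fold in Arg1- cells (1.98 ± 0.30, adjusted p = 0.000139). Areg was well above background on all 8 brain arrays and on 0 of 6 blood arrays, so its change is a bound on this scale. It was at least 12.9-fold in Arg1+ cells (adjusted p = 1.62e-07) and at least 6.13-fold in Arg1- cells (adjusted p = 9.17e-06). In the alternative settings its log2 difference was as low as 1.66 and 0.89. Hbegf read -2.51, -2.35 and -2.41 after TBI and was 4.0-fold higher in Arg1+ (2.00 ± 0.21, adjusted p = 2.57e-06) and 4.45-fold higher in Arg1- cells (2.15 ± 0.21, adjusted p = 2.08e-06). Unlike Nrg4, Hbegf did not differ beyond its spread between the brain populations.

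Gdf15 was 6.05-fold higher in Arg1+ cells than in post-TBI blood (2.60 ± 0.30, adjusted p = 6.74e-06) and 2.71-fold in Arg1- cells (1.44 ± 0.30, adjusted p = 0.0018). Igf1 read -3.56, -1.83, -1.65 and -2.49 in Arg1+ and -2.38, -2.78, -2.42 and -2.84 in Arg1- cells and was at the floor on all blood arrays. On this scale it was at least 3.83-fold higher in Arg1+ cells (adjusted p = 0.000412) and at least 3.28-fold in Arg1- cells (adjusted p = 0.00148). Arg1+ replicate 1 was not well above background for Igf1. The Arg1- call ended with normexp background correction (0.66, adjusted p = 0.0646). Another Igf1 probe sat at the floor on all 14 arrays and was not tested.

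Pdgfa read 1.98, 1.98, 2.31 and 1.97 in Arg1+, 2.05, 2.00, 1.75 and 2.22 in Arg1-, and -0.16, 0.46 and -0.30 in post-TBI blood. On this brightest probe it was 4.17-fold higher in Arg1+ (2.06 ± 0.20, adjusted p = 1.07e-06) and 4.01-fold in Arg1- cells (2.01 ± 0.20, adjusted p = 2.49e-06), but the other kept Pdgfa probe was not called (0.38 ± 0.41 and 0.16 ± 0.41). Pdgfb, the other chain, was not called (-0.30 ± 0.31 and -0.16 ± 0.31). Tgfb1 was not called either, at -0.29 ± 0.28 (interval -0.88 to 0.30) and -0.30 ± 0.28 (interval -0.89 to 0.30). Vegfb was not called on its brightest probe, at 0.00 ± 0.28 (interval -0.59 to 0.60) and -0.27 ± 0.28 (interval -0.86 to 0.33).

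Over 27 alternative settings the sizes varied more than the calls. In Arg1+ cells against post-TBI blood, the log2 difference ranged from 1.66 to 4.37 for Areg, 0.97 to 3.17 for Igf1, 1.65 to 2.83 for Gdf15, 1.23 to 2.12 for Hbegf and 1.22 to 2.29 for Pdgfa. In Arg1- cells it ranged from 0.89 to 3.30 for Areg, 0.66 to 2.95 for Igf1, 0.80 to 1.63 for Gdf15, 1.34 to 2.26 for Hbegf and 1.08 to 2.24 for Pdgfa. For Nrg4 the ranges were 2.94 to 4.69 and 1.11 to 2.39.

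Genes with several probes were read on each probe, adjusted over all 27609 kept probes in a test added after the data were seen. The 4 Vegfa probes gave the same picture, with log2 differences of 3.74, 4.65, 5.46 and 5.66 between Arg1+ cells and post-TBI blood and 3.30, 4.36, 5.44 and 5.42 for Arg1- cells. The Vegfb probes disagreed. The dimmer one (A_52_P436628) was higher in brain, by 1.35 ± 0.30 in Arg1+ (adjusted p = 0.00218) and 0.97 ± 0.30 in Arg1- cells (adjusted p = 0.0212), and with all probes averaged Vegfb was called in Arg1+ cells (0.68 ± 0.24, adjusted p = 0.039). The Pdgfa probes disagreed as well. The dimmer one (A_51_P370099) read 0.71, -0.20, 0.43 and 0.68 in Arg1+ cells and 0.30, 0.59 and -0.81 after TBI, and differed by 0.38 ± 0.41 (interval -0.50 to 1.26, adjusted p = 0.505). With both probes averaged, Pdgfa was higher by 1.22 and 1.08 and was called in both comparisons. Vegfb averaged in that way was not called in Arg1- cells (0.35). Read on single probes, the brain to blood difference of Pdgfa, and the lack of a call for Vegfb, thus hold for the brightest probe only. Both Pdgfb probes were without a call, the dimmer one at -0.65 ± 0.32 (adjusted p = 0.124) and -0.54 ± 0.32 (adjusted p = 0.221).

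**Figure D4:**
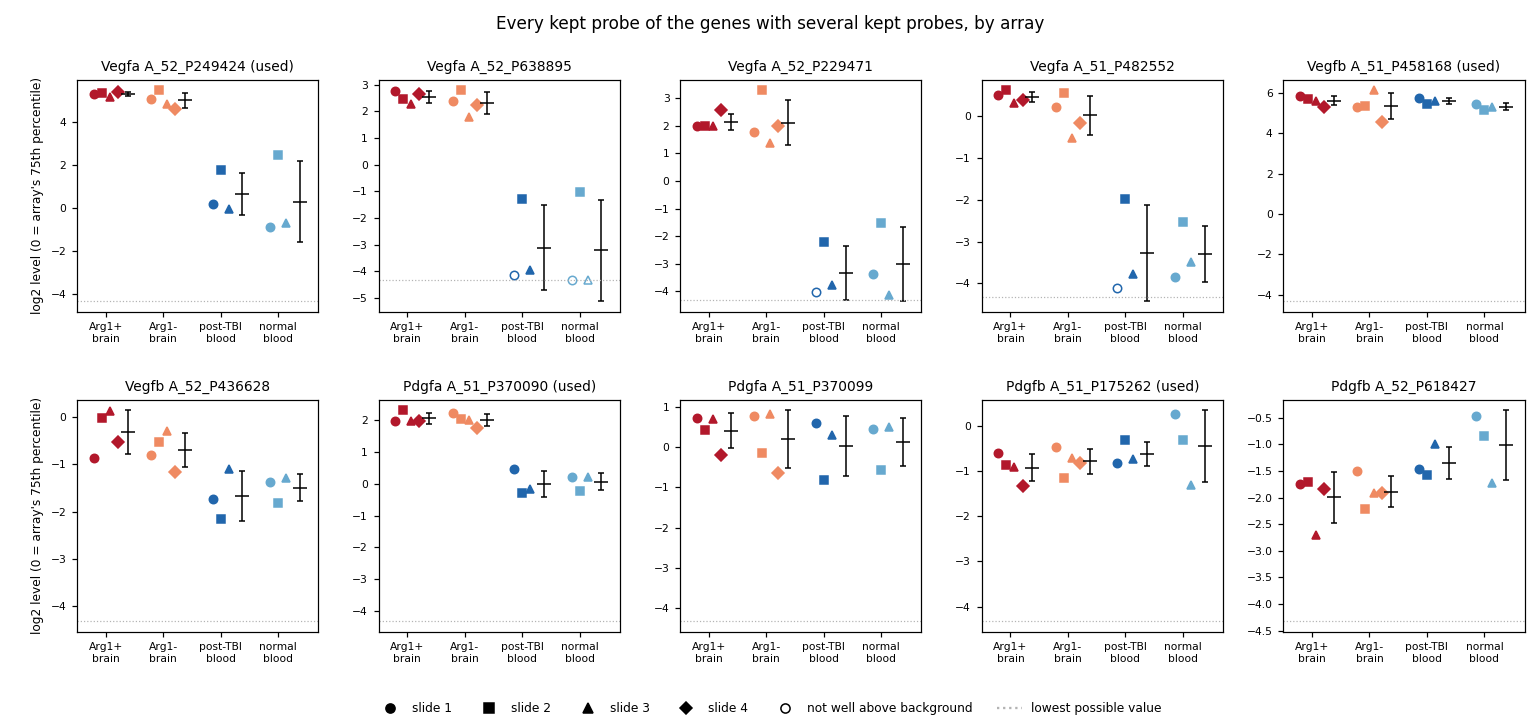
Log2 level of each kept probe of Vegfa, Vegfb, Pdgfa and Pdgfb on each array (y axis), by group (x axis), with the group mean and SD beside the points; "used" marks the brightest probe, which stands for the gene. All 4 Vegfa probes are high in brain and raised on the slide 2 blood arrays (squares), while the Pdgfa and Vegfb probes differ in whether brain and blood separate.

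Related genes were read from lists of pathway members. The counts below stand against 5.04% of all genes called between the brain populations, and 39.9% and 33.4% called in Arg1+ and Arg1- cells against post-TBI blood. Of 16 other ligands of the same families, 8 were tested and 0 were called between Arg1+ and Arg1- cells. Against post-TBI blood, 3 rose and 1 fell in Arg1+ cells, while 2 rose and 1 fell in Arg1- cells, of 8 tested in each. The EGF-family ligands Egf, Ereg and Nrg1 were not called in either, and Btc, Epgn and Nrg3 were too dim to test. Igf2, a fetal growth factor, was at least 23.7-fold and at least 28.5-fold higher in brain, and Pgf, a VEGF relative that binds FLT1, was higher by 1.83 and 2.75. Vegfc, a lymphatic growth factor, was lower by -2.31 and -2.24.

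Among receptors, 17 of 20 were tested. Nrp1, a co-receptor of VEGF, was the 1 gene called between the brain populations (0.75 ± 0.17, adjusted p = 0.0192), and 1 of 17 is near the 5.04% of all genes. Against post-TBI blood, 6 rose and 3 fell in Arg1+ cells (39.9% of all genes called), while 6 rose and 1 fell in Arg1- cells (33.4%). The VEGF co-receptor Nrp2 was higher by 4.68 and 4.03 and the IGF2 receptor Igf2r by 4.54 and 3.77. The VEGF receptor Kdr was at least 21.5-fold and at least 18.5-fold higher. Tgfbr3, the TGF-beta co-receptor, was lower by -4.78 and -4.12.

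Of 20 proteins that shed, activate or hold these ligands latent, 15 were tested and 0 were called between the brain populations. Against post-TBI blood, 8 rose and 2 fell in Arg1+ cells (39.9% of all genes called), while 5 rose and 2 fell in Arg1- cells (33.4%). The latent TGF-beta binding protein Ltbp3 was higher by 3.75 and 3.60, the plasminogen activator Plau by 4.02 and 4.55, and the TGF-beta activator Thbs1 by 3.61 and 2.74. The sheddase Adam8 was higher by 4.15 and 3.49.

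Of 7 tested IGF-binding proteins and carriers, Igfbp5 was higher (1.73 ± 0.39, adjusted p = 0.0159) and Igfbp4 lower (-1.48 ± 0.40, adjusted p = 0.0423) in Arg1+ than in Arg1- cells. Of 6 EGF receptor feedback genes, the 1 called was Spry2, a feedback inhibitor of receptor tyrosine kinases (1.78 ± 0.36, adjusted p = 0.00897). Against post-TBI blood, 8 of 14 tested TGF-beta feedback and target genes rose and 3 fell in Arg1+ cells, 7 rose and 3 fell in Arg1- cells, and 5 of the 6 EGF receptor genes were higher and 1 lower in both.

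Stress and hypoxia genes were read because Vegfa and Gdf15 are known targets of these responses. Of 18 tested hypoxia-response genes, 5 were higher and 0 lower in Arg1+ than in Arg1- cells, with a median of 0.57: P4ha2 (2.51 ± 0.30), Egln3 (1.86 ± 0.36), Ndrg1 (1.10 ± 0.25), Mxi1 (0.86) and Pfkfb3 (0.79 ± 0.18). Vegfa, a target of the same response kept out of this list, was not called there. Against post-TBI blood, 12 rose and 2 fell in Arg1+ cells, while 9 rose and 3 fell in Arg1- cells. Of 15 ATF4 and stress-response genes, Vegfa and Gdf15 included, 15 were higher in both brain populations than in post-TBI blood. Between the brain populations 1 was higher, Gdf15 itself, and 1 lower, the glutathione-degrading enzyme Chac1 (-0.91 ± 0.20, adjusted p = 0.0164). The cystine transporter Slc7a11 was at least 53.4-fold and at least 32.9-fold higher in brain than in post-TBI blood.

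Of 18 other growth factors and cytokines that macrophages can secrete, 9 were tested. Grn, which encodes progranulin (1.04 ± 0.25, adjusted p = 0.0244, 3 Arg1- spots usable), and Tnfsf12, which encodes TWEAK (1.21 ± 0.31, adjusted p = 0.035), were higher in Arg1+ cells. Both were also higher in Arg1+ and Arg1- cells than in post-TBI blood, Grn by 2.79 and 1.75 and Tnfsf12 by 2.68 and 1.47. Inhba, the activin A subunit, was higher by 7.20 and 6.50, against a post-TBI blood mean at the floor, where 1 of 3 arrays was well above background. Because of the floor, both differences may be too small.

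The genes most like each growth factor were those with the smallest root mean square difference of log2 levels, each centred on its own mean over the 14 arrays. For Nrg4, whose range was 5.17, they were the mitochondrial arginase Arg2 (0.41), Olfml2b (0.48) and the sphingosine phosphate receptor S1pr1 (0.48). For Gdf15 (range 3.73) they were Tnfsf12 (0.27), Wdr54 (0.29) and Prmt2 (0.29), and for Areg (range 4.36) Dhrs9 (0.33), Fam20c (0.35) and Procr (0.36). Vegfa (range 6.33) was followed less closely, by Adam8 (0.60), Gpr157 (0.64) and Thbs1 (0.71). Igf1 was followed by Cnrip1 (0.28), Mcoln3 (0.30) and Oxct1 (0.32), and Hbegf by Adra2a, Micall2 and Chka (0.25 each). For Pdgfa they were Htt (0.22), Eno2 (0.26) and Hbegf (0.26). These are descriptions over arrays that share 4 groups, with no test.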

How the data were processed

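Arrays were scanned with Feature Extraction 10.7.3.1, per the file headers, on a design annotated on mm9. The deposited scanner files hold a processed signal intensity per spot (background-subtracted and detrended by that software, not scaled between arrays), median spot and background intensities, and flags of 0 or 1. A deposited table holds the authors' log2 values; per the submitters' processing notes limma was used, with no version or step given. Their order within each array matched that of the median spot signal (Spearman 1) and their column medians were 6.16 to 6.19; their scaling and centring are not stated.

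Each processed signal was divided by its array's 75th percentile over non-control spots, raised to 0.05 where lower, and log2 transformed, which makes dim genes' differences too small. Spots called non-uniform or population outliers (200 to 728 per array) were set aside, and spots of a probe were averaged. Probes needed 2 usable arrays per group, which removed 464 of 41174, and 3 of 14 arrays with a signal well above background, which removed 13101 more. The 27609 kept probes were named through RefSeq accessions (GRCm38.p6 table, which named 18605 of them), and the brightest probe stood for a gene. limma 3.58.1 in R 4.3.3 (lmFit, eBayes with trend, 10 residual degrees of freedom, two-sided) fitted the 4 groups once, with p-values adjusted over 21969 genes by the Benjamini-Hochberg method. Where a group had 0 arrays well above background, a fold is a lower bound: the bright side's mean against the higher, on each array, of the dim probe's level and the lowest level of any probe well above background. Such a bound holds for this scaling with the floor of 0.05, not across the alternative settings. The pipeline was tested on simulated data.

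The growth factors, lists and tests were chosen with earlier results of these data known. Of each list, up to 4 called genes per comparison, those with the smallest p, were eligible to be named, with exceptions for Mxi1, which completes a count of 5, for Thbs1 in Arg1- cells, for Egf, Ereg, Nrg1 and genes too dim to test, and for genes set beside Areg and Vegfa, which were chosen after their values were seen. The 3 nearest genes of each called growth factor are also named. Alternatives were normexp correction (on the median spot signal, since the files read here hold no mean signal column, offset 50), quantile normalization, the authors' values, other filters and floors, the mean of probes, slide or replicate number as a block, fits on the compared groups, each array left out, and, added after seeing the data, each probe alone and no slide 2 blood arrays. The comparison of the TGF-beta target list between the brain populations is not reported here. Slides are those of the array barcodes. Figures were drawn with matplotlib 3.10.9 in Python 3.11.15.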

Additional observations from a re-analysis of the deposited data

Results flagged for a closer look

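The Arg1+ arrays for Pdgfa read 1.98, 1.98 and 1.97 and, on replicate 3, 2.31. The gap below 2.31 took up 0.972 of the range of the group, past the 95% limit of Dixon's test for 4 values. The 10 growth factors were searched in the 2 groups of 4 arrays, and chance flags about 1 in 20 groups. The dimmer Pdgfa probe read 0.43 on that array, inside the range of the other Arg1+ arrays. Without that array the brain to blood call for Pdgfa stayed.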

How the results depend on the processing

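Nrg4 was called between the brain populations in all 27 alternatives, Gdf15 in 19 (adjusted p 0.00175 to 0.0922) and Areg in 15 (0.0187 to 0.131). The count of growth factors called there was 3, and 1 (Nrg4) without the filter on dim probes and with only the compared groups in the fit, where the cause was not tested. With 1 array left out it was 1 to 3, and 1 without Arg1- replicate 3, Arg1+ replicate 1 or Arg1+ replicate 4. The counts of 0, 7 and 7 in the other comparisons stayed, except 8 in Arg1+ cells against post-TBI blood with all probes averaged (Vegfb added) and 6 in Arg1- cells with normexp (Igf1 lost). Over all genes, the 1108 called between the brain populations became 524 with normexp, 1867 without the slide 2 blood arrays and 602 to 1781 with 1 array left out. The 33 called between blood groups became 15 with normexp, 20 in the authors' values, 2 with a replicate block, 0 with only the compared groups, 21 without the slide 2 pair and 2 to 60 with 1 array left out. The replicate numbers share no pairing in the labels, and same-numbered arrays deviated together in 5 of 18 pairs (r over 0.1; range -0.46 to 0.40), so they are not taken as pairs; with a replicate block 2 growth factors were called between the brain populations (Gdf15 adjusted p = 0.0501), and 0, 7 and 7 elsewhere. Arrays on 1 slide deviated together more often (r 0.04 to 0.59), and with slide as a block the counts were 3, 0, 7 and 7.

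No called difference changed direction: of the recomputed values 438 stayed called, 21 did not. Of the uncalled differences 28 changed sign and 1 became a call (Vegfb in Arg1+ cells against post-TBI blood, 0.68 with all probes averaged); the cause was not tested. Between the brain populations Tgfb1 was -0.04 with normexp, -0.05 with quantile normalization and -0.03 in the authors' values, and Pdgfa -0.04, -0.01 and -0.04. Vegfb in Arg1- cells against post-TBI blood was 0.35 with all probes averaged. Without the slide 2 blood arrays Tgfb1 was -0.28 between blood groups and 0.12 and 0.11 for Arg1+ and Arg1- cells against blood. With 1 array left out, the ranges were -0.12 to 0.12 (Tgfb1), -0.03 to 0.13 (Pdgfa) and -0.02 to 0.61 (Igf1) between brain populations. Between blood groups they were -0.23 to 1.43 (Vegfa), -0.29 to 0.08 (Pdgfa), -0.60 to 0.18 (Pdgfb) and -0.34 to 0.30 (Tgfb1), and for Tgfb1 against post-TBI blood -0.52 to 0.12 in Arg1+ and -0.53 to 0.11 in Arg1- cells.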
